A study of Mus musculus with 16 samples.

Results

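This comparison set 4 SCN slices collected 6 h after vasoactive intestinal peptide (VIP) against 4 slices collected 2 h after vehicle, which is 8 of the 16 arrays of the series. The arrays were chosen by their labels. The first group, called CT16 VIP here, received 1 µM VIP at circadian time (CT)10 and was collected at CT16. The second, CT12 Veh, received air medium as vehicle at CT10 and was collected at CT12, where CT12 is the peak of PER2::LUC bioluminescence. All slices were organotypic cultures of the suprachiasmatic nucleus from C57BL/6J mice of P8 to P11, kept in culture for 7 days and then with luciferin for recording. CT12 Veh is the only vehicle group on these arrays. With no vehicle array at CT16 among the arrays used, 6 h of VIP and 4 h of further circadian time cannot be told apart in any difference below. Separate animals are not stated for the slices in the labels, and p-values therefore measure only the spread between these slices.

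The SCN is the master circadian pacemaker of mammals, and VIP is released by its retinorecipient cells. VIP acts on the VPAC2 receptor, which couples through Gs to adenylate cyclase, so that cAMP rises and the cAMP response element (CRE) in gene promoters can be engaged through CREB family factors. The ERK branch of MAP kinase signalling is a further route to transcription. A slice holds neurons, astrocytes, oligodendrocytes, microglia and, near the third ventricle, ciliated ependymal cells, so a lower value can reflect fewer cells of a type or less RNA per cell, and these cannot be told apart in whole slices.

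Amplified RNA of each slice was read on an Illumina MouseWG-6 v2 bead array. The values below are probe signals on the log2 scale after background correction and quantile normalisation of the 8 arrays, and a difference of 1 is a 2-fold change. A probe is called detected where its detection p does not exceed 0.01. Vehicle arrays had 8844 to 13751 detected probes, and CT16 VIP arrays 8019 to 16923. CT16 VIP 1 had the most, against 8019 to 11562 on the other CT16 VIP arrays. Its mean correlation with the other CT16 VIP arrays was 0.897, below its mean of 0.914 with the vehicle arrays. CT16 VIP 2 correlated about equally with both (0.927 and 0.928). Named genes whose call changed without CT16 VIP 1 are given both ways. The naming rule given with the processing picked 87 genes, of which 77 were called. Of these 77, 75 were also called without CT16 VIP 1, and the differences moved by a median of 0.063 and at most 0.29 on the log2 scale. Other genes in the text are outside these counts. Component 1 of the principal components (32.5% of variance) placed CT16 VIP 1 at -24.8, among the vehicle arrays (-26.9 to -6.47), whereas component 2 (22.2%) placed it farthest from them. The SCN and GABA neuron markers Vip, Avp, Rgs16, Gad1 and Gad2 were detected on all 8 arrays and Lhx1 on 3 of each group.

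**Figure D1:**
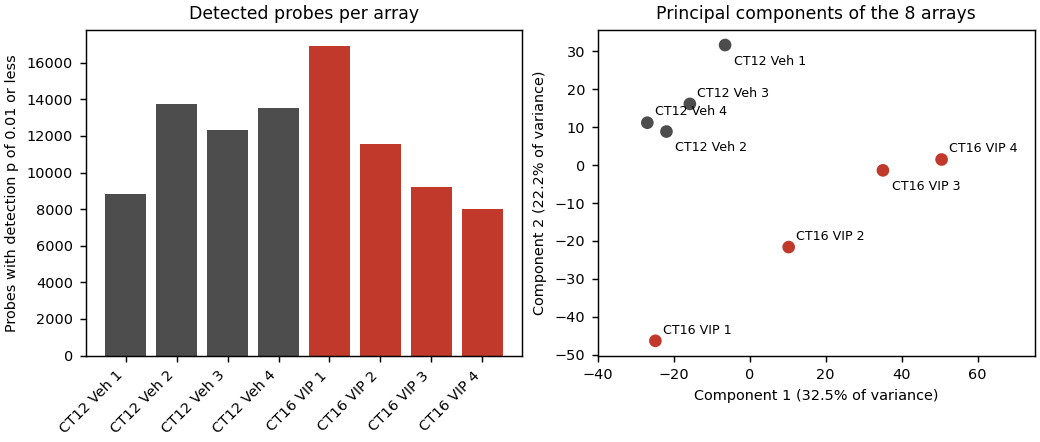
Left, number of detected probes on each array (grey, CT12 Veh; red, CT16 VIP). Right, each array on the first and second principal components of the probes tested. CT16 VIP 1 has 16923 detected probes and lies apart from the other 7 arrays on component 2.

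Of 18724 probes detected on at least 1 array, 414 differed between CT16 VIP and CT12 Veh at an adjusted p under 0.05 (2.21%, limma with Benjamini-Hochberg adjustment). Of these, 279 were higher in CT16 VIP (1.49% of probes tested) and 135 lower (0.721%). The higher share was 67.4% (95% exact binomial interval 62.6 to 71.9, counting error only). Measured rises were the larger changes, with 24 probes above 2 on the log2 scale and 1 below -2. Some of the 24 were detected on no vehicle array, such as Ccn4 (2.61, at least 2.64-fold), so their differences are no folds. The lowest detected signal of an array was 5.58 to 6.85, which limits how large a fall can be read. The sizes of rises and falls therefore cannot be compared. Without CT16 VIP 1, 776 of 16174 probes differed (4.8%), 379 higher (2.34%) and 397 lower (2.45%), so the higher share was 48.8%. Both fits called 386 probes in the same direction, 256 higher and 130 lower. Of the 390 probes called only without this array, 267 were lower. The count was 231 without CT12 Veh 1, 245 without CT12 Veh 2, 204 without CT12 Veh 3 and 210 without CT12 Veh 4. It was 244 without CT16 VIP 2, 268 without CT16 VIP 3 and 296 without CT16 VIP 4. The authors' own normalised values of the same arrays gave 666 (3.56%), with 394 higher (2.1%) and 272 lower (1.45%). Without CT16 VIP 1 they gave 1078 (6.67%), with 528 higher (3.26%) and 550 lower (3.4%).

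**Figure D2:**
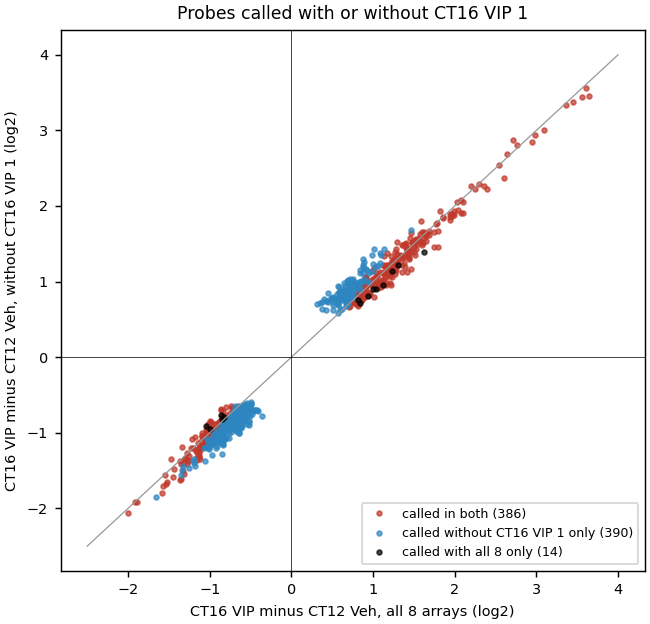
Each point is a probe called in at least 1 of the fits, with its difference on all 8 arrays (x axis, log2) and on the 7 arrays without CT16 VIP 1 (y axis, log2). The line marks equal values. Of the probes tested in both fits, 386 were called in both, 390 only without CT16 VIP 1 and 14 only with all 8 arrays.

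The largest rises were those of genes with little or no signal in vehicle slices. Where a gene was detected on none of a group's arrays, its fold is given as a lower bound. This bound sets the mean of the bright group against the mean of the lowest detectable signals of the other group's arrays. Cartpt, which encodes the CART neuropeptide precursor, read 5.14, 5.39, 5.25 and 5.31 on the vehicle arrays and 9.22, 8.30, 9.27 and 8.88 on the CT16 VIP arrays. It was detected on no vehicle array and on all 4 CT16 VIP arrays, and was at least 6.73-fold higher (adjusted p = 1.01e-05, limma). A further Cartpt probe, also detected on no vehicle array, was called higher.

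Gjb2, encoding the gap junction protein connexin 26, read 5.20, 5.46, 5.88 and 5.16 in vehicle and 8.93, 9.05, 8.93 and 9.20 in CT16 VIP, at least 7.27-fold higher (adjusted p = 8.54e-06). Of the 8 gap junction genes measured it was the only one called, and the main astrocyte connexins Gja1 (-0.28) and Gjb6 (-0.29) did not pass. Stc1, encoding the secreted glycoprotein stanniocalcin 1, read 5.07, 5.12, 5.68 and 5.46 in vehicle and 8.55, 8.51, 8.74 and 8.98 in CT16 VIP. It was at least 5.77-fold higher (adjusted p = 9.87e-06). In all of these the groups were far apart, and the 4 CT16 VIP arrays lay within 1 log2 unit of each other.

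Among the next largest rises, Gem, a small GTPase that inhibits voltage-gated calcium channels, was at least 3.73-fold higher (adjusted p = 6.99e-05). The telomere protein gene Tinf2 was at least 2.36-fold higher and Ccn4, encoding a secreted matricellular protein, at least 2.64-fold. Nptx1, a neuronal pentraxin of excitatory synapses, was at least 2.21-fold higher and Lmx1a, a LIM homeodomain factor of midbrain dopamine neuron development, at least 1.9-fold. Adjusted p-values for Tinf2, Ccn4, Nptx1 and Lmx1a lay between 4.24e-05 and 0.00032, and none of these calls was lost when an array was left out. A further Lmx1a probe, detected on 1 array, did not pass (adjusted p = 0.422).

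**Figure D3:**
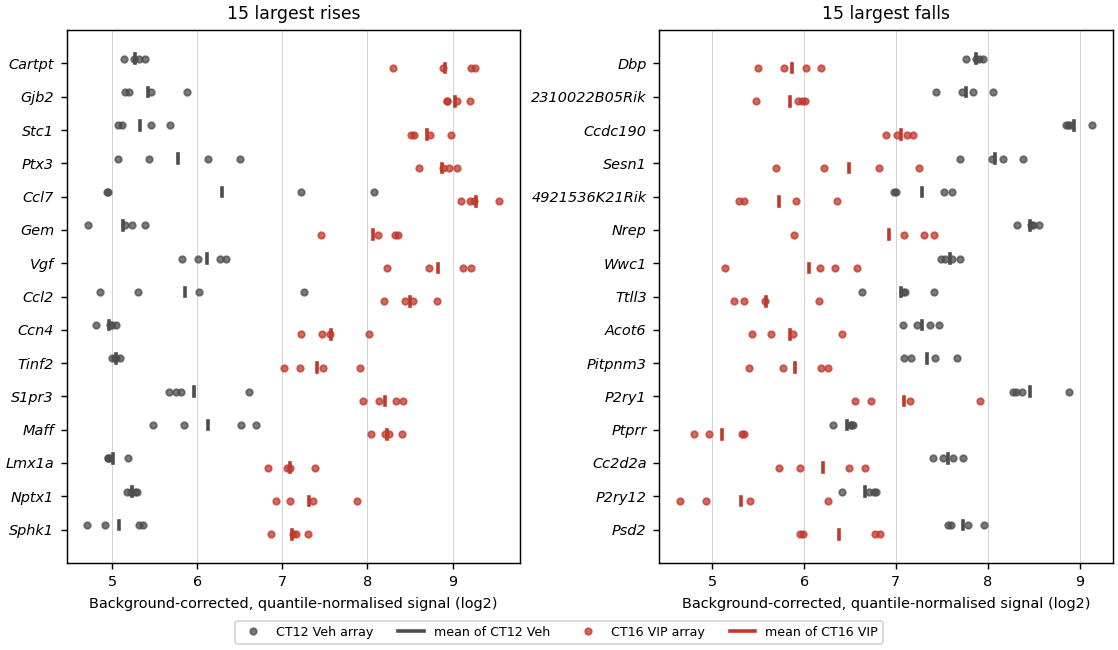
Signal on each array (dots, log2 after background correction and quantile normalisation) for the 15 named genes with the largest rise and the 15 with the largest fall, with the mean of each group of 4 as a bar. The groups overlap in none of them, which the rule for showing them required, and the vehicle arrays are widely spread for Ccl7 (4.94 to 8.07) and Ccl2 (4.86 to 7.26).

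Promoter windows of 300 bases from RefSeq (GRCm38.p6), reaching from before a gene's start to just after it, were read for the letters of the CRE. The full palindromic CRE, TGACGTCA, was present in the windows of 8 of the 131 matched genes that were higher (6.11%) and of 2 of the 80 that were lower (2.5%). Of all 8114 matched genes with a tested probe, 3.76% held it. The core TGACG on either strand, which is part of the full motif, was in 45.8% of higher genes, 26.2% of lower genes and 36.4% of all. The E-box CACGTG of the CLOCK and BMAL1 heterodimer was in 11.5%, 8.75% and 11.6%. The D-box TTATGTAA of the DBP family, searched on both strands, was in no window of a called gene and in 0.702% of all. These shares are descriptions of letters and no test was made.

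The higher genes with the full motif were Cartpt, Tinf2, Maff, Dusp1, Slc25a25, S1pr2, Ell2 and Senp2, and Slc25a25, S1pr2, Ell2 and Senp2 were picked knowing their values. The windows of Cartpt, Maff and Dusp1, and that of Fos with 2 core motifs, are shown because these genes carry the largest rise and the early response described below. Sequences run 5′ to 3′ on the gene's strand, and capitals mark any of the motifs searched, on either strand.
Cartpt (chr13:99900634-99900933, minus strand): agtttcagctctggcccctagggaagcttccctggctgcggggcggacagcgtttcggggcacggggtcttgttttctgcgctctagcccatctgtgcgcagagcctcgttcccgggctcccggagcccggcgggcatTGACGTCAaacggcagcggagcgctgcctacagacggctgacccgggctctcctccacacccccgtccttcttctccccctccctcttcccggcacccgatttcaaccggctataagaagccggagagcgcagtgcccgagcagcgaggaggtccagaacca
Maff (chr15:79347270-79347569, plus strand): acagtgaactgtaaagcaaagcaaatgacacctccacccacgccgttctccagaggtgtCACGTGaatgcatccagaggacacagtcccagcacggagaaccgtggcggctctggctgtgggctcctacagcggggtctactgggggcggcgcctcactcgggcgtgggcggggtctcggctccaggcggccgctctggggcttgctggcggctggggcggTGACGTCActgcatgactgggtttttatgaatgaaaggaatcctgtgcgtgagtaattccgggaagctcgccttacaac
Dusp1 (chr17:26508423-26508722, minus strand): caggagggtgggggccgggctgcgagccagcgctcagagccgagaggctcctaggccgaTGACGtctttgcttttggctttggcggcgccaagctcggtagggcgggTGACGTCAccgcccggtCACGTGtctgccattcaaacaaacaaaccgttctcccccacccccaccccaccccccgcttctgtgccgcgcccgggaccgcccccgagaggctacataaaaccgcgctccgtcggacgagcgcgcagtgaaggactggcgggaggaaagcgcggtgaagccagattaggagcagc
Fos (chr12:85473640-85473939, plus strand): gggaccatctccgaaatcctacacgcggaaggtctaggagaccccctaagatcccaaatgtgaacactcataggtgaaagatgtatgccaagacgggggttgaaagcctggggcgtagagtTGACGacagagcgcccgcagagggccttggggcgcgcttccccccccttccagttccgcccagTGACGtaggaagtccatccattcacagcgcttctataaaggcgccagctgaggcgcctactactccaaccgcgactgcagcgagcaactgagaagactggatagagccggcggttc
The full motif starts 112 bases before the start of Cartpt, 29 before that of Maff and 143 before that of Dusp1. The 2 core motifs of Fos start 129 and 66 bases before its start. RefSeq gives 3 windows for Maff, 1 for each of 3 starts, and only the one shown holds the full motif. A match shows only that the letters are present.

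Of 27 neuropeptide and peptide-processing genes measured, 4 rose (Cartpt, Vgf, Nts and Tac1), none fell and 23 did not pass, beside 1.74% of all 10193 named genes called higher, 0.961% called lower and 2.7% in either direction. The median of the list was 0.06, against -0.04 for all named genes, of which 4524 of 10193 lay above 0. Vgf, a precursor of secreted neuropeptides, read 5.83, 6.26, 6.01 and 6.33 in vehicle and 8.23, 8.72, 9.13 and 9.22 in CT16 VIP. The difference was 2.71 ± 0.23 (SE, n = 4 and 4, adjusted p = 0.000105), with no overlap between groups. Nts, the neurotensin precursor, read 6.94, 5.61, 6.41 and 6.09 against 8.32, 7.98, 7.96 and 7.96, a difference of 1.79 ± 0.25 (adjusted p = 0.00339), though a further Nts probe did not pass (adjusted p = 0.0558). Tac1, the substance P precursor, was detected on no vehicle array and on 2 CT16 VIP arrays and was at least 1.14-fold higher (adjusted p = 0.00197).

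The classical SCN peptides did not pass. Vip read 7.31, 8.66, 9.50 and 9.22 in vehicle and 8.38, 9.03, 7.60 and 8.88 in CT16 VIP, a difference of -0.20 ± 0.44 (adjusted p = 0.9). Avp differed by -0.20 ± 0.24 (adjusted p = 0.793) and Grp by -0.05 ± 0.34 (adjusted p = 0.976). Gal, encoding galanin, had a larger difference of 1.45 ± 0.44 with overlapping arrays (4.95 to 6.96 against 6.77 to 8.05) and did not pass (adjusted p = 0.138). The spread of Vip between vehicle slices was over 2 log2 units, so modest differences in this gene were not detectable with 4 arrays a group. The neuropeptide count was 4 whichever array was left out.

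Of 23 immediate early genes measured, 5 rose (Maff, Fos, Fosl2, Egr1 and Nr4a3), none fell, and 20 of 23 had a difference above 0 (median 0.38, and 0.32 with the 6 genes undetected in a group set at their bound, or at 0 where the bound was under 1, as in all such medians below, chosen after seeing the data). Fos read 6.18, 7.59, 6.63 and 6.19 in vehicle and 8.20, 8.29, 8.06 and 8.31 in CT16 VIP, a difference of 1.57 ± 0.28 (adjusted p = 0.0141). The vehicle arrays varied by over 1 log2 unit and the CT16 VIP arrays by 0.25, without overlap. Maff, a small Maf factor, rose by 2.10 ± 0.25 and Fosl2, an AP-1 subunit, by 1.30 ± 0.22. Nr4a3, an orphan nuclear receptor gene named after its value was seen, was at least 1.18-fold higher (adjusted p = 0.0444). Egr1, a zinc finger factor, rose by 1.20 ± 0.23 (adjusted p = 0.0212). Jun (0.29) and Arc (0.27), canonical activity genes, did not pass. Egr1 was not called without CT12 Veh 3, CT16 VIP 2 or CT16 VIP 3 (adjusted p = 0.0602 to 0.0765), and the list's count was 3 without each of these arrays. It was 0 without CT12 Veh 1, CT16 VIP 3 and CT16 VIP 4 together, the 3 arrays with under 10000 detected probes, a setting chosen after seeing the data that leaves 5 arrays.

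Dual specificity phosphatases remove phosphate from MAP kinases and so limit their signalling. Dusp1 read 8.03, 8.71, 8.29 and 8.32 in vehicle and 9.84, 9.71, 9.50 and 9.51 in CT16 VIP, a rise of 1.30 ± 0.18 (adjusted p = 0.00334). Dusp4, a nuclear phosphatase of ERK, read 6.11, 6.40, 7.26 and 7.39 against 8.16, 7.64, 7.70 and 7.83. Its groups did not overlap, but the difference of 1.04 ± 0.28 did not pass (adjusted p = 0.0925, and 0.108 without CT16 VIP 1), while it passed in the fit of 12 arrays described below (adjusted p = 0.0374). All CT16 VIP arrays lay above all vehicle arrays for 4.65% of named genes and below for 6.07%.

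Dusp10 rose by 0.91 ± 0.19 (adjusted p = 0.0282), while a further probe of it did not pass (0.71), and Dusp14 differed by 0.42 ± 0.20 without passing (adjusted p = 0.373). Phlda1, a pleckstrin homology domain gene of the same list, rose by 1.53 ± 0.28 (adjusted p = 0.0166), which makes 3 called of 17 MAP kinase phosphatase and ERK feedback genes, with a median of 0.20. Dusp10 was called only with all arrays or without CT16 VIP 1 (adjusted p = 0.0622 to 0.0991 otherwise). Phlda1 was not called without CT12 Veh 1, CT16 VIP 2 or CT16 VIP 4 (adjusted p = 0.0511 to 0.0579), and the list's count was 1 without each of those arrays and 0 without the 3 arrays of few detected probes. The sprouty and Spred members of the list, which restrain ERK signalling upstream, lay between -0.08 and 0.60 and none passed.

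Of 32 genes in the list for cAMP signalling, which includes the GTPase gene Gem, 5 rose and none fell (median 0.14). They were Gem, Crem and the phosphodiesterases Pde4a, Pde4b and Pde4d, which degrade cAMP. Crem, whose products include the repressor ICER, read 5.73, 6.79, 6.63 and 6.84 in vehicle and 8.63, 8.71, 8.14 and 8.40 in CT16 VIP. The rise was 1.97 ± 0.25 (adjusted p = 0.00185), and both other Crem probes were also higher (2.30 and 1.32). Pde4d rose by 1.64 ± 0.26 (adjusted p = 0.00739) and Pde4a by 1.37 ± 0.20 (adjusted p = 0.00419). Pde4b, named after its value was seen, rose by 1.24 ± 0.25 (adjusted p = 0.0259). The list had 4 to 6 calls whichever array was left out. Sik1, a kinase that holds CREB coactivators in the cytoplasm, had a difference of 1.06 ± 0.25 and did not pass (adjusted p = 0.0535), but passed in the fit of 12 arrays (adjusted p = 0.0142). Adenylate cyclases and protein kinase A subunits lay between -0.55 and 0.21, with none called. Without CT16 VIP 1 the protein kinase A subunit gene Prkar2b, named after its value was seen, was also called (-0.76, adjusted p = 0.0366).

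Genes known from reactive astrocytes formed the list with the largest median. Of 15 measured, 9 rose, none fell and 14 had a difference above 0, with a median of 1.12 against -0.04 for all named genes (0.88 with the 4 genes undetected in a group at their bound). Ptx3, a secreted pentraxin of innate immunity, read 6.12, 6.50, 5.43 and 5.06 in vehicle and 8.96, 8.88, 8.61 and 9.05 in CT16 VIP, a rise of 3.10 ± 0.28 (adjusted p = 0.000157). The receptor for sphingosine 1-phosphate S1pr3 read 5.81, 6.61, 5.67 and 5.75 against 8.14, 8.42, 8.33 and 7.94, a rise of 2.25 ± 0.22 (adjusted p = 0.00032). Sphk1, the kinase that makes its ligand, was at least 1.93-fold higher (adjusted p = 0.000211).

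Timp1, an inhibitor of matrix metalloproteases, and Osmr, the oncostatin M receptor, were not detected in vehicle. Timp1 was at least 1.6-fold higher and Osmr at least 1.84-fold (adjusted p = 0.00372 and 0.000781), and a further Osmr probe detected on 1 array did not pass. Timp1 was detected on 2 CT16 VIP arrays and was at least 1.36-fold higher without CT16 VIP 1. The intermediate filament gene Vim rose by 0.86 ± 0.18 (adjusted p = 0.0304), while a further Vim probe detected on 1 array did not pass (adjusted p = 0.112). Vim was also the member called of 3 tanycyte markers. Cd44 (1.41 ± 0.21), a hyaluronan receptor, and Steap4 (1.15 ± 0.26), named after their values were seen, also rose, and Cxcl10, described below, is in this list too. Of 11 general astrocyte markers none passed, Gfap differed by -0.12, and their summed linear signal was 12543.6 to 13615.9 in vehicle and 11445.9 to 12093.3 in CT16 VIP, whose part in these results was not tested. The reactive list had 8 called without CT16 VIP 1 and 6 to 8 whichever array was left out, Vim being lost without CT12 Veh 1, 2 or 3 or CT16 VIP 2 or 3 (adjusted p = 0.0837 to 0.11).

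Of 19 chemokines and cytokines measured, 7 rose, none fell and 15 lay above 0. The median was 0.51, but 10 of the 19 were undetected in a group, and with these at their bound, or at 0 where the bound was under 1, it was 0.0021. Ccl2 read 6.02, 7.26, 4.86 and 5.30 in vehicle and 8.20, 8.54, 8.44 and 8.81 in CT16 VIP, and Ccl7 read 7.22, 8.07, 4.94 and 4.95 against 9.25, 9.10, 9.20 and 9.55. Both encode monocyte attractants, and for both the vehicle arrays 1 and 2 were higher than 3 and 4, while the CT16 VIP arrays were even. Ccl2 rose by 2.64 ± 0.41 (adjusted p = 0.00659) and Ccl7 by 2.98 ± 0.60 (adjusted p = 0.0251). The IL-6 family cytokine genes Il11 (at least 1.94-fold, adjusted p = 0.00142) and Lif (1.42 ± 0.27, adjusted p = 0.0188) rose as well, with Cxcl10 (1.12 ± 0.25, adjusted p = 0.0447), of which a further probe did not pass (0.95, adjusted p = 0.0636). Ccl5 rose by 0.96 ± 0.18 and Il1b was at least 1.05-fold higher (adjusted p = 0.0169 and 0.0294), both named after their values were seen.

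The number of chemokine and cytokine genes called was 2 without CT12 Veh 4, the lowest when 1 array was left out, and 1 without the 3 arrays of few detected probes. Cxcl10 was not called without any 1 of CT12 Veh 1, 3 or 4 or the 4 CT16 VIP arrays (adjusted p = 0.0578 to 0.142). Ccl7 was not called without CT12 Veh 3 or 4 or CT16 VIP 2, 3 or 4 (adjusted p = 0.0641 to 0.0762), and Lif without CT12 Veh 1, 3 or 4 or CT16 VIP 2, 3 or 4 (adjusted p = 0.0511 to 0.069). Of 10 microglia markers, 1 was called, lower, and their summed linear signal was 2015.76 to 2289.75 in vehicle and 1843.08 to 2028.74 in CT16 VIP, whose part in these results was not tested.

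The IL-6 family acts through the receptor subunit gp130 and STAT3. Of 19 genes of that pathway, 4 rose (Socs3, Osmr, Cebpd and Stat3), none fell, and the median was 0.14. The LIF receptor gene Lifr, named after its value was seen, was also called without CT16 VIP 1, lower and detected on none of the remaining CT16 VIP arrays (adjusted p = 0.0286). Socs3, the feedback inhibitor of the pathway, read 5.88, 6.72, 4.91 and 5.37 in vehicle and 7.71, 7.87, 7.34 and 7.91 in CT16 VIP, a rise of 1.99 ± 0.33 (adjusted p = 0.00851). Cebpd, a transcription factor of the acute phase response, read 7.32, 6.96, 7.52 and 7.16 against 8.57, 8.98, 8.67 and 8.68, a rise of 1.48 ± 0.18 (adjusted p = 0.00119). In neither did the groups overlap. Stat3 itself rose by 0.86 ± 0.17 (adjusted p = 0.0222), and 2 further probes of it were higher (0.70 and 0.95). Its call held only with all arrays or without CT16 VIP 1 (adjusted p = 0.0577 to 0.0847 otherwise). Of 19 interferon-stimulated genes 1 was called, Ifit1 (1.63 ± 0.37, adjusted p = 0.0465), whose arrays overlapped and which was not called without CT16 VIP 1 (adjusted p = 0.0687), CT16 VIP 2 or 3, or CT12 Veh 1, 3 or 4 (0.107 to 0.129).

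Secreted growth factors rose in 5 of 20 cases and fell in none (median 0.15). Besides Stc1, Fgf2 rose by 1.56 ± 0.19 (adjusted p = 0.00121), from 5.79 to 6.41 in vehicle to 7.53 to 7.77 in CT16 VIP. Hbegf, a ligand of the EGF receptor, read 8.07, 8.16, 7.95 and 7.75 against 8.99, 9.53, 9.53 and 9.68, a rise of 1.45 ± 0.19 (adjusted p = 0.00205). Igfbp3, which binds insulin-like growth factors, rose by 1.50 ± 0.25 (adjusted p = 0.00851), and Tgfb2 by 0.82 ± 0.17 (adjusted p = 0.0306, named after its value was seen). Vegfa (0.41) did not pass. In RefSeq, Fgf2 (chromosome 3, 37348477 to 37410106) overlaps the antisense gene Nudt6 (37404982 to 37420242), which was chosen after its value was seen and rose by 1.39 ± 0.18 (adjusted p = 0.00202). The list had 4 or 5 called whichever array was left out.

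Of 23 matrix and protease genes, 4 rose (Timp1, Has2, Adamts1 and Adamts4), none fell, and the median was 0.12. Adamts4, a protease of proteoglycans, read 8.24, 9.00, 8.30 and 8.78 in vehicle and 9.96, 10.16, 10.27 and 10.32 in CT16 VIP, a rise of 1.60 ± 0.20 (adjusted p = 0.0018). Adamts1, of the same family, rose by 1.34 ± 0.25 (adjusted p = 0.0172), with 1 further probe higher (1.47) and 1 not passing. Has2, a hyaluronan synthase detected on no vehicle array and on 2 CT16 VIP arrays, was called (adjusted p = 0.00792). Its CT16 VIP mean of 6.06 lay below the mean of the lowest detectable signals of the vehicle arrays, so no fold is given.

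Of 15 actin and SRF-linked genes, Tpm4 (1.86 ± 0.19), Actn1 (0.99 ± 0.19) and Tpm3 (0.82 ± 0.17) rose, encoding tropomyosins and alpha-actinin, while Actb (0.18) did not pass. Bag3, a cochaperone of HSP70, rose by 2.03 ± 0.21 (adjusted p = 0.000371) as the only 1 of 16 heat shock and cold-inducible genes. Nefm, a neurofilament subunit, rose by 1.47 ± 0.17 (adjusted p = 0.0009), with 1 further probe higher (1.19) and 1 not passing. Adamts1 was not called without CT12 Veh 1, 3 or 4 or CT16 VIP 2 (adjusted p = 0.0532 to 0.0635), Actn1 without CT12 Veh 2, 3 or 4 or CT16 VIP 3 (0.0612 to 0.079), and Tpm3 without any vehicle array or CT16 VIP 2 or 3 (0.0803 to 0.107).

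Clock genes moved in both directions. Of 20 measured, 4 rose, 1 fell and 15 did not pass (median 0.17, and 0.0043 with the 5 genes undetected in a group at their bound or at 0). Dbp, a PAR bZIP factor driven by CLOCK and BMAL1, had the largest fall of any named gene. It read 7.87, 7.77, 7.90 and 7.95 in vehicle and 6.19, 6.02, 5.78 and 5.50 in CT16 VIP, a difference of -2.00 ± 0.18 (adjusted p = 0.000144). It was detected on all 4 vehicle arrays and on 1 CT16 VIP array, and the groups lay over 1.5 log2 units apart. The other members of the list that lay below 0 did not pass. Among them were Nr1d2 at -0.67 (adjusted p = 0.0677, and 0.0247 without CT16 VIP 1), Hlf at -0.71 and Tef at -0.38. Nr1d1, detected on no CT16 VIP array, did not pass either (adjusted p = 0.179). These 4 were named after their values were seen. Per2, which CLOCK and BMAL1 also drive, lay above 0 as given below.

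Rorb, encoding the orphan receptor ROR beta, read 6.71, 6.62, 6.83 and 6.32 in vehicle and 8.04, 8.35, 7.67 and 7.83 in CT16 VIP, a rise of 1.35 ± 0.19 (adjusted p = 0.00348). Fbxl21, an F-box protein that controls CRY stability, rose by 1.39 ± 0.26 (adjusted p = 0.0172), Usp2, a deubiquitinase of clock proteins, by 0.89 ± 0.18 (adjusted p = 0.0271) and the repressor Bhlhe40 (Dec1) by 0.85 ± 0.19 (adjusted p = 0.0426). Of the further probes, 1 of Fbxl21, detected on 1 array, was higher, while 1 of Fbxl21 (0.74) and 1 of Usp2 did not pass. Per2 read 7.61, 7.77, 7.93 and 8.09 against 8.43, 8.29, 8.17 and 8.18. Its groups did not overlap, though the gap was under 0.1, and the difference of 0.42 ± 0.17 did not pass (adjusted p = 0.272).

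Per1, detected on 1 of the 8 arrays, did not pass (adjusted p = 0.594), and its level was not measurable on most arrays. Rora differed by 0.53 ± 0.17 without passing (adjusted p = 0.178). Bhlhe40 and Usp2 were not called without CT12 Veh 1, 3 or 4 or CT16 VIP 2, 3 or 4 (adjusted p = 0.0606 to 0.141 and 0.0576 to 0.0991), and Fbxl21 was not called without CT16 VIP 3 or 4 (0.059 and 0.0502). The clock list had 2 calls without CT16 VIP 3 or CT16 VIP 4 and 6 without CT16 VIP 1. Circadian time differs by 4 h between the groups in every one of these genes.

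Metabolic genes divided. Of 23 genes of glycogen and insulin-linked metabolism, 4 rose and 5 fell (median -0.14). Irs2, the insulin receptor substrate, was not detected in vehicle and was at least 2.77-fold higher (adjusted p = 0.000176). Ppp1r3c, which targets protein phosphatase 1 to glycogen, read 9.11, 9.38, 9.31 and 9.33 in vehicle and 11.10, 10.56, 10.81 and 10.66 in CT16 VIP, a rise of 1.50 ± 0.17 (adjusted p = 0.000781). Its relative Ppp1r3g, detected on 2 CT16 VIP arrays, was at least 1.09-fold higher (adjusted p = 0.0114). Without CT16 VIP 1 it was detected on 1 CT16 VIP array and was still called, but no fold can be given.

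Sesn1, a stress-inducible inhibitor of mTORC1, read 8.16, 7.70, 8.05 and 8.39 in vehicle and 7.25, 6.21, 5.69 and 6.81 in CT16 VIP, a fall of 1.58 ± 0.30 on the log2 scale (adjusted p = 0.0194). Its groups did not overlap, and its call was lost without CT12 Veh 1, 3 or 4 or CT16 VIP 2 (adjusted p = 0.0612 to 0.066). The other members called were named after their values were seen. Txnip, which restrains glucose uptake, fell by 1.32 ± 0.30, glycogen phosphorylase Pygb by 1.06 ± 0.19, pyruvate dehydrogenase kinase Pdk4 by 1.02 ± 0.20 and Ddit4 by 0.80 ± 0.18, while Ddit4l rose by 1.13 ± 0.18. Ddit4 and Ddit4l are related inhibitors of mTORC1 and moved in opposite directions. The count of 9 was the same without CT16 VIP 1 and was 5 without CT12 Veh 1, 3 or 4 or CT16 VIP 2.

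Of 16 cholesterol synthesis genes, 3 rose, none fell and 15 lay above 0 (median 0.29). Msmo1, a sterol methyl oxidase, rose by 1.25 ± 0.17 (adjusted p = 0.00236), Pmvk, a kinase of the mevalonate pathway, by 1.25 ± 0.19 (adjusted p = 0.00591) and Hsd17b7, a ketoreductase of the same pathway, by 0.81 ± 0.15 (adjusted p = 0.0169). The vehicle arrays lay between 7.57 and 8.02 for Msmo1 and the CT16 VIP arrays between 9.00 and 9.31. The sterol regulators Insig1 (0.21), Srebf2 (0.02) and Scap (-0.12) did not pass. Hsd17b7 was not called without CT12 Veh 1, 3 or 4 or CT16 VIP 2 (adjusted p = 0.0542 to 0.0689). Cyp51, a sterol demethylase gene named after its value was seen, was called as well without CT16 VIP 1 (0.84, adjusted p = 0.0334), and without the 3 arrays of few detected probes none was called.

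After Dbp the largest were 2310022B05Rik (-1.91 ± 0.19, adjusted p = 0.000336) and Ccdc190 (-1.89 ± 0.16, adjusted p = 9.52e-05). Ccdc190 read 9.14, 8.86, 8.88 and 8.89 in vehicle and 7.18, 7.01, 7.12 and 6.89 in CT16 VIP, the groups being over 1.5 log2 units apart. Of its further probes 1 was also lower (adjusted p = 0.00501) and 1 did not pass, both undetected in CT16 VIP. Ttll3, a tubulin glycylase, was at least 1.67-fold lower and Cc2d2a, of the ciliary transition zone, fell by 1.36 ± 0.22 (adjusted p = 0.00767 and 0.00758). Of the further Ttll3 probes 1, undetected in CT16 VIP, was lower and 1 did not pass (-0.13).

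Ptprr, a tyrosine phosphatase that inactivates ERK, was at least 1.11-fold lower (adjusted p = 0.00197). Without CT16 VIP 1 it was still called, but no fold can be given. Psd2, an exchange factor for ARF6, read 7.57, 7.78, 7.96 and 7.60 in vehicle and 5.99, 6.77, 6.82 and 5.96 in CT16 VIP, a fall of 1.34 ± 0.23 on the log2 scale (adjusted p = 0.0109). Wwc1, which encodes the synaptic scaffold KIBRA, fell by 1.53 ± 0.27 and Nrep by 1.53 ± 0.29 (adjusted p = 0.0134 and 0.0196). For these last 2, CT16 VIP 4 was the lowest array, at 5.14 and 5.89. Pitpnm3 (-1.43 ± 0.22), Acot6 (-1.45 ± 0.22), an acyl-CoA thioesterase, and 4921536K21Rik (-1.55 ± 0.26) completed the largest falls with the purinergic receptors below. A further Acot6 probe did not pass (0.03, adjusted p = 0.981). Nrep was not called without CT12 Veh 1, 3 or 4 (adjusted p = 0.0601 to 0.0642).

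The ADP receptor genes P2ry1 and P2ry12 were both lower. P2ry12, a marker of resting microglia, read 6.78, 6.41, 6.71 and 6.76 in vehicle and 6.26, 5.41, 4.93 and 4.65 in CT16 VIP, a fall of 1.35 ± 0.30 on the log2 scale (adjusted p = 0.0377). P2ry1 read 8.37, 8.88, 8.27 and 8.30 against 7.92, 7.15, 6.73 and 6.56, a fall of 1.37 ± 0.28 (adjusted p = 0.028). In both, CT16 VIP 1 was the CT16 VIP array nearest to vehicle, and without it the adjusted p-values were 0.00302 and 0.00351. P2ry12 was then detected on no CT16 VIP array and was at least 1.07-fold lower, and P2ry1 differed by -1.63. Both calls were lost when any other array was left out (adjusted p = 0.0648 to 0.115). From CT16 VIP 1 to CT16 VIP 4 both genes fell in the order of detected probes (16923, 11562, 9226 and 8019). The vehicle arrays did not follow this order, and its part in the falls was not tested. None of the other 9 microglia markers passed, with Tyrobp at 0.06 and C1qb at -0.28, and a second P2ry12 probe, detected on 1 array, did not pass either.

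Motile cilia genes were lower as a group, in a list first written after falls in these data had been seen, so that its direction is a description. Of 26 measured, 24 had a difference below 0, 3 were called lower (Ccdc190, Tmem212 and Cfap126) and the median was -0.60. Without CT16 VIP 1, 7 were called and the median was -0.72. In that fit 284 of all 9080 named genes were called lower and 230 higher, against 98 and 177 of 10193 with all arrays. The same background holds for the other lists given without this array. The summed linear signal of the motile cilia genes was 5558.34 to 6570.66 in vehicle and 2636.78 to 4846.97 in CT16 VIP. Of 8 ependymal markers, none lay above 0, the median was -0.67 and 1 was called (3 without CT16 VIP 1), with summed signals of 2321.23 to 2980.77 and 1297.11 to 2065.06. How far the share of ependymal cells in a slice sets these values was not tested. Tmem212 (-1.08 ± 0.22) and Cfap126 (-0.88 ± 0.19) were called only with all arrays or without CT16 VIP 1 (adjusted p = 0.0528 to 0.121 otherwise).

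Transmitter receptors and GABA genes also lay low, with 18 of 21 below 0 and a median of -0.39, but none passed with all arrays. Of all 10193 named genes, only 4524 lay above 0. Without CT16 VIP 1, Gria4 and Gabra3, an AMPA and a GABA-A receptor subunit named after their values were seen, were called lower (adjusted p = 0.023 and 0.0225), each detected on none of the 3 remaining CT16 VIP arrays. For lists with a single call, such as ion channel, interferon-stimulated and heat shock genes, the background is the 2.7% of all named genes called. Of 29 ion channel genes, Scn3b, a sodium channel beta subunit, was called (-0.88 ± 0.18, adjusted p = 0.029), and 3 other probes of it did not pass (-0.58 to -0.19). It was not called without any 1 of the other 7 arrays than CT16 VIP 1 (adjusted p = 0.0505 to 0.106). The list had 3 calls without CT16 VIP 1, Scn3b lower (-0.92, adjusted p = 0.0225) and Scn4b and Cacna1h higher (adjusted p = 0.026 and 0.0353). Scn4b and Cacna1h, a sodium channel beta subunit and a T-type calcium channel gene named after their values were seen, were each detected on no vehicle array and on 1 CT16 VIP array. Of 7 HLH inhibitors and Notch targets, Id1, detected on 2 CT16 VIP arrays, was at least 1.28-fold higher (adjusted p = 0.00659), and at least 1.22-fold without CT16 VIP 1. Hey1, a Notch effector, fell by 0.74 ± 0.16 (adjusted p = 0.0342). Hey1 was called with all arrays and without CT16 VIP 1 or 4 only (adjusted p = 0.0659 to 0.114 otherwise). The HLH inhibitor Id2, named after its value was seen, was also called without CT16 VIP 1 (0.62, adjusted p = 0.0351). The 13 neuron markers had a median of -0.11 and summed signals of 4616.93 to 5406.22 and 4560.18 to 5321.57, with Nefm alone called.

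Several lists showed no call. No member passed among 31 oxidative phosphorylation subunits (median -0.04), 28 cytosolic ribosomal proteins (0.09), 22 ER stress and ATF4 targets (-0.04), 6 prostaglandin synthesis genes (0.17) and 10 oligodendrocyte markers (0.03). Of these, 26 respiratory, 22 ribosomal and 1 of the prostaglandin genes were detected on all 8 arrays. No red blood cell marker was measured, and 1 endothelial, 4 mural and 3 fibroblast markers were, none called. Among 16 SCN identity genes only Rorb was called, and the summed signal was 1753.53 to 3379.07 in vehicle and 2054.84 to 2969.83 in CT16 VIP.

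**Figure D4:**
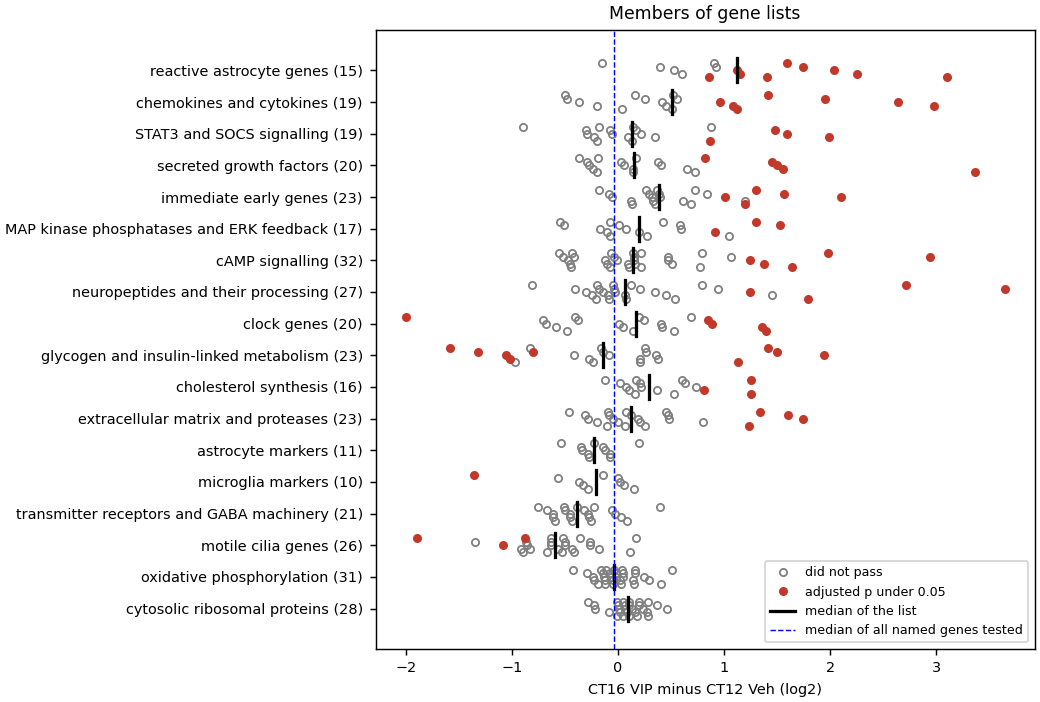
Difference between CT16 VIP and CT12 Veh (log2) of each measured member of 18 gene lists, with the number measured in brackets. Filled red points passed at an adjusted p under 0.05, open points did not, black bars are list medians and the dashed line is the median of all 10193 named genes (-0.04). Members undetected in a group are drawn at their measured difference, which is no fold. Of the 18 lists plotted, reactive astrocyte genes have the highest median (1.12) and motile cilia genes the lowest (-0.60).

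Values from slices collected 2 h after VIP (CT12 VIP, 4 arrays) show which differences were already present then. They come from a fit of 12 arrays, in which both responses share the vehicle arrays, and the difference between responses is CT16 VIP minus CT12 VIP. In that fit 698 of 19565 probes differed between CT16 VIP and CT12 Veh (3.57%), with 397 higher (2.03%) and 301 lower (1.54%). Between CT12 VIP and CT12 Veh 344 differed (1.76%), with 302 higher (1.54%) and 42 lower (0.215%). Between CT16 VIP and CT12 VIP 296 differed (1.51%), 114 higher (0.583%) and 182 lower (0.93%), and without CT16 VIP 1 584 of 17987 (3.25%), 211 higher (1.17%) and 373 lower (2.07%). Of the 87 named genes, 27 differed between 6 h and 2 h, 15 higher and 12 lower. Folds in this fit are given as lower bounds, as above, where a group had no array above background. Lmx1a and Id1 were detected on no vehicle and no CT12 VIP array, and at 6 h were at least 2.09-fold and 1.41-fold higher than at 2 h (adjusted p = 3.62e-06 and 0.000645). Actn1 had a difference from vehicle of -0.15 at 2 h and 0.98 at 6 h (6 h minus 2 h 1.13 ± 0.17, adjusted p = 0.00254). For these 3 genes the comparison of 2 h with vehicle did not pass.

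Gjb2 was at least 1.6-fold higher than in vehicle at 2 h and at least 7.22-fold at 6 h, and 6 h minus 2 h was 2.18 ± 0.22 (adjusted p = 8.02e-05). Stc1 was at least 1.47-fold and at least 5.75-fold higher (6 h minus 2 h 1.97 ± 0.17, adjusted p = 2.27e-05), and Vgf differed by 1.50 and 2.71 (1.21 ± 0.21, adjusted p = 0.00713). All 3 were higher at 6 h than at 2 h. Cartpt was at least 4.78-fold higher than vehicle at 2 h and at least 6.7-fold at 6 h, and its 6 h minus 2 h difference of 0.49 ± 0.20 did not pass (adjusted p = 0.29). The cytokine pathway genes Il11, Lif, Osmr and Cebpd were all higher at 6 h than at 2 h, by 1.13, 1.06, 1.03 and 0.97, though Il11 and Osmr were detected on only 2 of the 4 CT12 VIP arrays and Lif on 1. Socs3 was not, with 2.45 at 2 h and 2.00 at 6 h (adjusted p = 0.55).

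Some of the early factors were lower at 6 h than at 2 h. Fos had 3.06 at 2 h and 1.56 at 6 h (difference -1.50 ± 0.25, adjusted p = 0.00592), Fosl2 2.93 and 1.29 (-1.63 ± 0.19, adjusted p = 0.00037) and Dusp1 2.44 and 1.29 (-1.15 ± 0.16, adjusted p = 0.00145). All were still called at 6 h. Adamts1, Maff and Usp2 were likewise lower at 6 h than at 2 h, by 1.52, 1.07 and 0.82. Egr1 (-0.53, adjusted p = 0.263), Phlda1 (-0.79, adjusted p = 0.175) and Crem (-0.27, adjusted p = 0.653) did not pass in this comparison. Per1, detected on all 4 CT12 VIP arrays, was at least 1.44-fold higher than vehicle at 2 h (adjusted p = 0.0205), and its 6 h minus 2 h difference of -0.83 ± 0.26 did not pass (adjusted p = 0.157). Dusp4 had 2.01 and 1.04 (-0.97, adjusted p = 0.081, and 0.0469 without CT16 VIP 1), and Per2 0.47 and 0.42.

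Larger differences between the times were found in Il6 and Ddit4l, which were named after their values were seen. Il6, detected on no vehicle array, was at least 4.02-fold higher at 2 h, and at 6 h it was detected on 1 of 4 arrays and did not pass against vehicle in the 8-array fit (6 h minus 2 h -2.73, adjusted p = 5.74e-05). Ddit4l had -1.14 at 2 h and rose by 1.13 at 6 h (6 h minus 2 h 2.26, adjusted p = 1.51e-05). Dbp had -0.62 at 2 h, which did not pass (adjusted p = 0.0718), and -2.01 at 6 h (difference -1.39 ± 0.16, adjusted p = 0.000268). Psd2 (-0.19 and -1.34), Wwc1 (-0.39 and -1.53) and Cc2d2a (-0.33 and -1.36) also were lower at 6 h than at 2 h, whereas the fall of Ccdc190 was present at 2 h (-1.32 and -1.87). Time after VIP and circadian time cannot be told apart in these differences.

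**Figure D5:**
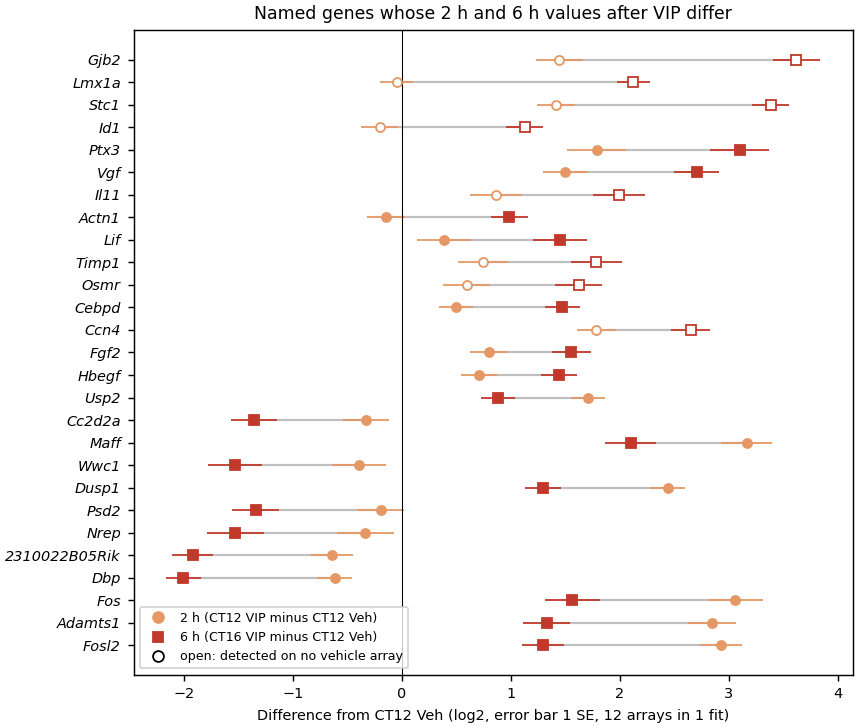
Difference from CT12 Veh (log2) at 2 h (orange circles, CT12 VIP) and 6 h (red squares, CT16 VIP) for the 27 named genes that differed between the VIP groups, ordered by 6 h minus 2 h. Error bars are 1 SE from the fit of 12 arrays, 4 per group, and both points of a gene share the vehicle arrays. Open symbols are genes detected on no vehicle array, whose distance from 0 is a measured difference and no fold. Actn1 lies at -0.15 and 0.98, Fosl2 at 2.93 and 1.29.

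Set against the authors' own values, which lie on a variance-stabilised scale where differences are smaller, the named genes kept their direction except Grp (0.019). Cartpt (adjusted p = 1.01e-06), Gjb2 (1.22e-08) and Dbp (-0.77, adjusted p = 8.39e-06) were called there too. On that scale Dusp4 passed (0.46, adjusted p = 0.0232), as did Sik1 (0.36, adjusted p = 0.0352) and Rora (0.45, adjusted p = 0.0164), and Cfap126 did not (-0.23, adjusted p = 0.0926). Without CT16 VIP 1, Cartpt was at least 6.11-fold, Gjb2 at least 7.23-fold and Stc1 at least 5.82-fold higher. Dbp was then detected on no CT16 VIP array and was at least 2.45-fold lower. Of the 77 named genes called, Cxcl10 and Ifit1 were not called without it, and 53 were called whichever array was left out.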

How the data were processed

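Total RNA of the slices was amplified, biotinylated and read on 1-colour bead arrays. The deposited table held, per probe and array, the signal intensity without normalisation and a detection p-value made by the authors' scanner software. The authors also deposited log2-like values, variance-stabilised and quantile-normalised over all 16 arrays with lumi, per the labels, and these served as a check. The labels give 1 µM VIP, whereas the methods of the study give 10 µM. A design note gives CT12 for the 6 h slices, against CT16 in the labels.

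Intensities of the 8 arrays were corrected by normexp with the detection p-values (offset 16), quantile-normalised and put on the log2 scale with neqc of limma 3.58.1 in R 4.3.3. Probes detected (p not above 0.01) on any array were tested by lmFit and eBayes, 2-sided, with Benjamini-Hochberg adjustment over all probes tested and a threshold of 0.05. The fits were tested on simulated data. A gene is given by its probe with the highest mean, and further probes are stated where they differ. The number of arrays limits the precision. Probe names came from the platform annotation, updated through RefSeq. Slide positions were not given in the sources used here.

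By rule, the text names the 15 genes with the strongest rise and the 15 with the strongest fall whose groups do not overlap and that were detected on at least 3 arrays of the higher group, the genes the study discusses, and up to 4 called members of each of 38 lists. The members and lists were chosen with earlier results of these data known. Alternatives were log2 quantile normalisation without background correction, the authors' values, normalisation or fitting over 16 arrays, other detection filters, array weights, a covariate for detected probes per array, a replicate block, the mean of a gene's probes and leaving out each array.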

Additional observations from a re-analysis of the deposited data

Results flagged for a closer look

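In 10 of 174 groups of 4 arrays, 1 array lay far from the others, where chance flags about 1 in 20 groups. In vehicle these were S1pr3 at 6.61, Lmx1a at 5.19, P2ry1 at 8.88 and Pde4a at 6.66 on CT12 Veh 2, each above the other 3 arrays. Ccdc190 at 9.14 was above them on CT12 Veh 1, whereas Fbxl21 at 5.22 on CT12 Veh 1 and Ptprr at 6.32 on CT12 Veh 3 were below. Among CT16 VIP arrays, Adamts1 at 8.84 on CT16 VIP 2 and Nts at 8.32 on CT16 VIP 1 were above the rest, and 2310022B05Rik at 5.47 on CT16 VIP 3 was below.

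The 6 h and 2 h responses to VIP differed in 27 of 87 named genes, tested as CT16 VIP minus CT12 VIP (limma, adjusted p under 0.05). The difference was positive for Gjb2 (2.18), Lmx1a (2.17), Stc1 (1.97), Id1 (1.33), Ptx3 (1.31), Vgf (1.21), Il11 (1.13), Actn1 (1.13), Lif (1.06), Timp1 (1.04), Osmr (1.03), Cebpd (0.97), Ccn4 (0.86), Fgf2 (0.76) and Hbegf (0.73). It was negative for Fosl2 (-1.63), Adamts1 (-1.52), Fos (-1.50), Dbp (-1.39), 2310022B05Rik (-1.28), Nrep (-1.19), Psd2 (-1.15), Dusp1 (-1.15), Wwc1 (-1.14), Maff (-1.07), Cc2d2a (-1.03) and Usp2 (-0.82). Lmx1a and Id1 were detected on no CT12 VIP array, so their values are measured differences and no folds.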

How the results depend on the processing

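Of the 77 named genes called, 49 kept their call at every planned setting in which they were tested, and none changed direction. The number was 32 when the added setting below is counted too. With only probes detected on every array of a group, 13 of the 87 named genes were not tested, and those called count as kept there. Against 414 probes with 67.4% higher, the count was 666 (59.2% higher) with the authors' values, 836 (54.3%) with all 16 arrays in one fit, 656 (59.1%) with a covariate for detected probes per array, and 204 to 776 (48.8 to 77.6%) when 1 array was left out. The share was 62.5% without background correction, 53.6% for probes detected on every array of a group, 56.5% with array weights and 58.2% with the mean of a gene's probes. Without CT12 Veh 1, CT16 VIP 3 and CT16 VIP 4, which had the lowest numbers of detected probes, an alternative chosen after seeing the data, 103 were called (85.4% higher), with fewer samples. Immediate early, phosphatase and cholesterol genes then had 0 calls and chemokines and cytokines 1, against 5, 3, 3 and 7. The authors' values gave 44 named genes with different 6 h and 2 h responses, against 27. The cause of these shifts was not tested.

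Same-numbered arrays did not deviate together (correlations -0.239, 0.068, -0.056 and -0.171), and differently numbered arrays gave -0.134 to 0.23. With so few arrays and such similar ranges, whether the numbers pair the slices cannot be told. With the replicate block, 180 probes were called (76.7% higher). Uncalled throughout, Grp (-0.05) was 0.035 without background correction, 0.019 with the authors' values, 0.025 with the covariate, and -0.41 to 0.13 when 1 array was left out, above 0 without CT12 Veh 3 or 4 or CT16 VIP 3 or 4. Vip (-0.20) was -0.66 to 0.086 when 1 array was left out, above 0 without CT12 Veh 3 or CT16 VIP 3.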
